A study of Mus musculus with 12 samples.

Results

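The mouse major histocompatibility complex (MHC) class II genes described here are 10 genes chosen by name, out of 54532 genes counted in each of 12 tumour RNA libraries. They are the antigen-presenting chains H2-Aa, H2-Ab1 and H2-Eb1, the peptide exchange chains H2-DMa, H2-DMb1 and H2-DMb2, the chains of its inhibitor H2-Oa and H2-Ob, the invariant chain Cd74 and the transactivator Ciita. All 10 were found, and all 10 passed the filter on low counts that kept 15650 genes for testing. The tumours were mouse models of malignant peripheral nerve sheath tumour, a sarcoma of peripheral nerve, raised in mice of the strain the labels give as C57B/6 and the genotype WT, with an adenovirus that carried a Cas9 system aimed at Nf1 and at a gene spelled Cdk2na in the labels. The 4 terminal combination tumours came from animals dosed daily by oral gavage with the CDK4/6 inhibitor palbociclib at 100 mg/kg together with the MEK inhibitor mirdametinib at 1 mg/kg, and were taken at the terminal time point. The 4 regressing tumours had the same drugs at the same doses and were taken during regression. The 4 vehicle tumours were also taken at the terminal time point and carry the same gene edits. The labels give no age, no days of treatment and no statement that each tumour came from its own mouse, so the p-values measure only the spread between these samples.

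Class II molecules show peptides from proteins that a cell has taken up to CD4 T cells. The alpha and beta chains pair in the endoplasmic reticulum on the invariant chain, which fills the groove and leads them to endosomes. There the DM heterodimer swaps the remaining invariant chain fragment for other peptides, and the DO heterodimer holds DM back, mainly in B cells and some dendritic cells. Dendritic cells, B cells and macrophages make class II constantly or when activated, and interferon-gamma can switch it on in other cells through CIITA. CIITA binds no DNA itself but sits on RFX, CREB and NF-Y, which occupy the conserved X and Y boxes of class II promoters. The same boxes stand before the invariant chain and DM genes, so most members answer to a single switch. Mice with the haplotype of C57BL/6 make no E alpha chain, so their E beta chain has no partner.

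The X and Y boxes are printed because they are what the promoters of most members have in common. RefSeq's promoter table (build GRCm38.p6, 250 bases before to 50 bases after each gene start) held windows for 7 of the 10 members, and these were searched on both strands for AAC, the core of an X box, followed after 25 to 28 bases by ATTGG, the core of a Y box. The spacing was chosen after these members' windows had been seen. The pair stood on the gene's own strand in 6 of the 7, in H2-Aa, H2-Eb1, H2-DMb1, H2-DMb2, H2-Oa and H2-Ob, and the letters were in neither of the windows of H2-DMa. Of all 27025 genes in the table, 1.36% had the pair on the gene's strand and 2.83% on either strand. In the lines below, 5′ to 3′ on the gene's strand, the capitals mark AAC and ATTGG.
H2-Aa: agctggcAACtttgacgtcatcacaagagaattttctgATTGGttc
H2-Eb1: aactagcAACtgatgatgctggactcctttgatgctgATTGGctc
H2-DMb1: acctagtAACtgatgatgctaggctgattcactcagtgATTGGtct
H2-DMb2: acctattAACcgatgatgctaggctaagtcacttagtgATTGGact
H2-Oa: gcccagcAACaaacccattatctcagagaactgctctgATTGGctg
H2-Ob: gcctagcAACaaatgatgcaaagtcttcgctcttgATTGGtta
These stretches lie at chr17:34287864-34287909 (minus strand) for H2-Aa and, on the plus strand, at chr17:34305771-34305815 for H2-Eb1, chr17:34153092-34153137 for H2-DMb1, chr17:34145121-34145166 for H2-DMb2, chr17:34092298-34092343 for H2-Oa and chr17:34238813-34238855 for H2-Ob. Counted from the RefSeq start, the ATTGG lay between 43 bases before it, in H2-Oa, and 90 bases before it, in H2-DMb2. The gene positions given further on are from GENCODE and differ from RefSeq for some genes. By those positions the stretches of H2-DMb1 and H2-DMb2 lie inside the gene, and that of H2-Oa overlaps its start. There were 28 bases between the boxes in H2-Aa, H2-DMb1, H2-DMb2 and H2-Oa, 27 in H2-Eb1 and 25 in H2-Ob. A match is a description of letters and not evidence that a factor binds there.

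The libraries held 13194699 to 22639625 counted reads, and a count of 0 allows a level of up to 0.133 to 0.227 CPM (counts scaled to library size), which is 3 counts of the total. The edited genes cannot check the labels, since every group was edited: Nf1 lay at 12.2 to 23.8 CPM in terminal combination, 11.6 to 19.5 in regressing and 10.2 to 22.1 in vehicle tumours, and Cdkn2a at 21.2 to 257, 7.49 to 393 and 5.08 to 244 CPM in the same order of groups. Several libraries stood apart. Regressing replicate 4 held far more lymphocyte RNA than the other 11 tumours: the summed level of 9 B cell markers was 265 CPM there and 8.04 to 34.8 CPM elsewhere, and that of 10 T cell markers was 505 CPM there and 20.5 to 106 CPM elsewhere. Skeletal muscle RNA was highest in regressing replicates 1 and 4 and terminal combination replicate 2, with 57090, 32720 and 36540 CPM over 10 muscle genes, against at most 15130 CPM in any other tumour. Adipocyte RNA was also uneven, with 101 to 650.2 CPM over 10 genes in terminal combination, 200.4 to 2109 in regressing and 19.1 to 135 in vehicle tumours, the highest in regressing replicate 4, while 8 endothelial genes summed to 227 to 547, 513 to 620 and 237 to 610.4 CPM in the same order of groups. The part of muscle and fat in the class II levels was not tested. Mitochondrial transcripts took 0.785% to 1.49% of counts in terminal combination, 0.839% to 2.14% in regressing and 0.562% to 0.982% in vehicle tumours, the highest in regressing replicates 4 and 1, and replicate 4 was also the shallowest library; their part in the class II levels was not tested. The main results on the members are given with and without these libraries. The Schwann lineage genes, which fit the labelled tumour type, summed to 31.2 to 113 CPM in terminal combination, 48.1 to 63.6 in regressing and 38.7 to 218 in vehicle tumours, and no gene of that list was at 0 in all tumours of a group.

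Class II RNA was present in every tumour, and the treated tumours spread far above and far below the vehicle tumours. The 4 most abundant members, H2-Aa, H2-Ab1, H2-Eb1 and Cd74, took 0.075%, 0.107%, 0.0946% and 0.408% of all counted reads in terminal combination replicates 1 to 4, 0.264%, 0.398%, 0.058% and 0.567% in the regressing ones and 0.201%, 0.151%, 0.164% and 0.218% in the vehicle ones. The lowest share, in regressing replicate 3, had a 95% Wilson interval of 0.057% to 0.059% and the highest, in regressing replicate 4, one of 0.563% to 0.571%, which cover counting error only. The regressing group thus held both the lowest and the highest tumour of the 12. In bulk RNA, fewer cells that express a gene and less RNA of it per cell cannot be told apart.

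**Figure D1:**
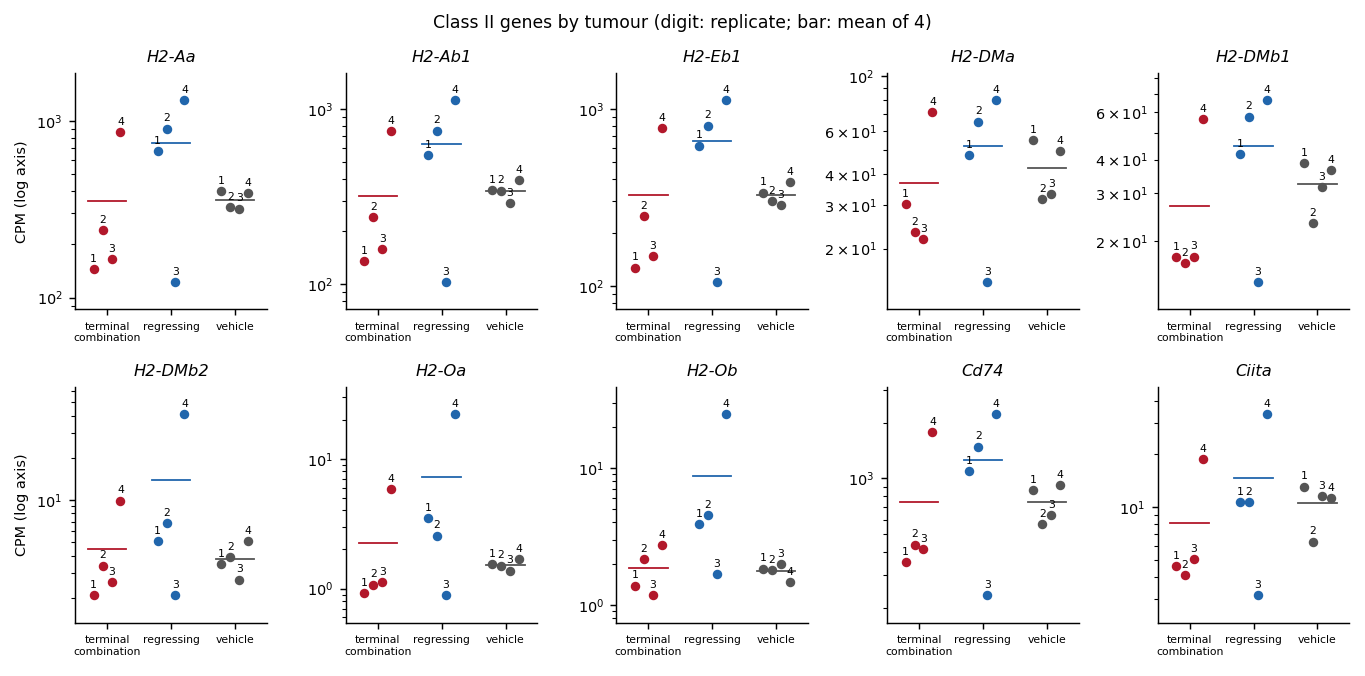
Level of each of the 10 class II genes in CPM (log axis) in the 12 tumours, grouped as terminal combination, regressing and vehicle; points are tumours, digits are replicate numbers and bars are the arithmetic mean of 4 tumours. Regressing replicate 4 is the highest tumour for all 10 genes, and terminal combination replicate 4 stands above the rest of its group for all 10.

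H2-Ab1 (ENSMUSG00000073421, chr17:34257689-34269419), the beta chain of the I-A molecule, had 136, 240.5, 158 and 744 CPM in terminal combination tumours. It had 546, 752, 103 and 1119 CPM in regressing tumours, and 346, 342, 289 and 391 CPM in vehicle tumours. In terminal combination, replicates 1 to 3 lay below every vehicle tumour and replicate 4 above every one; in the regressing group, replicate 3 lay below and the other 3 above. H2-Aa (ENSMUSG00000036594, chr17:34282744-34287823), its alpha partner, had the same arrangement, with 144, 241, 166 and 860.2 CPM in terminal combination, 678, 904, 123 and 1305 CPM in regressing and 400.0, 326, 319 and 390 CPM in the vehicle group. H2-Eb1 (ENSMUSG00000060586, chr17:34305867-34316674), the E beta chain, had 127, 247, 148 and 781 CPM in terminal combination, 621, 806, 105 and 1118 CPM in regressing and 337, 301, 285 and 386 CPM in the vehicle group. For all 3 genes the tumours outside the vehicle range were the same. H2-Ea-ps, the E alpha pseudogene, was listed at 0 in all 12 libraries.

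The 3 presenting chains kept close proportions to each other within a tumour. The count of H2-Aa was 95.3% to 124% of that of H2-Ab1 over the 12 tumours, and that of H2-Eb1 88.1% to 114%, while the level of H2-Ab1 itself ranged 10.9-fold. For H2-Aa this ratio was 100% to 116% in terminal combination, 117% to 124% in regressing and 95.3% to 116% in vehicle tumours, a difference that was not tested. Per kilobase of exon, averaged over the 12 tumours, the level was 547 CPM for Cd74, 225.5 for H2-Eb1, 168 for H2-Ab1 and 128.5 for H2-Aa. It was 20.7 for H2-DMb1, 12.7 for H2-DMa, 4.21 for H2-DMb2, 2.62 for H2-Oa, 1.16 for Ciita and 0.767 for H2-Ob. The presenting chains and the invariant chain thus stood well above the genes that exchange peptides, with the DO chains and the transactivator lowest.

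Cd74 (ENSMUSG00000024610, chromosome 18), the invariant chain that escorts new class II molecules, had 354, 440.4, 415 and 1782 CPM in terminal combination tumours. In regressing tumours it had 1099, 1483, 235 and 2229 CPM, and in vehicle tumours 863, 565, 632 and 922 CPM. Its order followed that of H2-Ab1: terminal combination replicates 1 to 3 and regressing replicate 3 lay below all vehicle tumours, and the other 4 treated tumours above all of them. Its count was 1.83 to 2.62 times that of H2-Ab1 in terminal combination, 1.97 to 2.28 times in regressing and 1.65 to 2.5 times in vehicle tumours.

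Of the DM genes, which load peptides, H2-DMa ranged 5.45-fold and H2-DMb1 4.69-fold over the 12 tumours, less than the presenting chains, at 10.65-fold to 10.9-fold. H2-DMb2 ranged 19.8-fold. The order was not the same within each group. In vehicle tumours H2-DMa and H2-DMb1 ranged 1.74-fold and 1.66-fold, against 1.26-fold to 1.36-fold for the presenting chains. In terminal combination tumours H2-DMb2 ranged 4.70-fold, against 5.49-fold to 6.17-fold for those chains. H2-DMa (ENSMUSG00000037649, chr17:34119541-34139101) had 30.3, 23.3, 21.9 and 71.6 CPM in terminal combination, 47.9, 65.4, 14.6 and 79.8 CPM in regressing and 55.2, 31.7, 33.3 and 49.6 CPM in the vehicle group. H2-DMb1 (ENSMUSG00000079547, chr17:34153072-34160230) ran from 16.6 to 56.5 CPM in terminal combination, 14.1 to 66.1 CPM in regressing and 23.3 to 38.8 CPM in the vehicle group. H2-DMb2 (ENSMUSG00000037548, chr17:34143307-34151555), a second beta chain gene, had 2.10, 3.40, 2.59 and 9.87 CPM in terminal combination, 5.10, 6.85, 2.09 and 41.2 CPM in regressing and 3.47, 3.93, 2.69 and 5.08 CPM in the vehicle group. Regressing replicate 4 thus held most of the H2-DMb2 RNA of its group, and the count of H2-DMb2 was 62.3% of that of H2-DMb1 there, against 8.53% to 20.4% in the other 11 tumours. The 2 beta genes share sequence: 22.7% of the 50-base words of H2-DMb1 transcripts and 21.2% of those of H2-DMb2 occur in the other gene. How the authors' counting split such reads is not given in the sources used here, so their ratio is uncertain. H2-DMa likewise shares 8.43% of its words with the gene Brd2.

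The DO genes, which restrain DM, were the least abundant chains and the most uneven. H2-Ob (ENSMUSG00000041538, chr17:34238903-34254414) had 1.38, 2.14, 1.17 and 2.74 CPM in terminal combination tumours, from 24 to 48 counts. It had 3.89, 4.53, 1.69 and 24.9 CPM in regressing tumours, and 1.84, 1.79, 1.98 and 1.46 CPM in vehicle tumours. Regressing replicates 1, 2 and 4 lay above all vehicle tumours and replicate 3 within them. H2-Oa (ENSMUSG00000024334, chr17:34092340-34095234) had 0.921, 1.07, 1.12 and 5.88 CPM in terminal combination, 3.50, 2.56, 0.887 and 22.2 CPM in regressing and 1.54, 1.501, 1.37 and 1.69 CPM in the vehicle group. For H2-Oa the 4 vehicle tumours lay close together, and both treated groups had tumours on either side of them. H2-Oa shares 15.5% of its words with the gene BC051537, so its counts too are uncertain where reads could be split.

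Ciita (ENSMUSG00000022504, chr16:10480059-10528418), whose product turns the other members on, was a gene of low abundance. It had 4.61, 4.11, 5.04 and 18.7 CPM in terminal combination, 10.6, 10.6, 3.15 and 33.9 CPM in regressing and 13.1, 6.36, 11.5 and 11.2 CPM in the vehicle group. Regressing replicates 1 and 2, which were above the vehicle range for the presenting chains, were inside it for Ciita. The count of Ciita was 1.71% to 3.40% of that of H2-Ab1 in terminal combination, 1.41% to 3.07% in regressing and 1.86% to 3.98% in vehicle tumours.

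**Figure D2:**
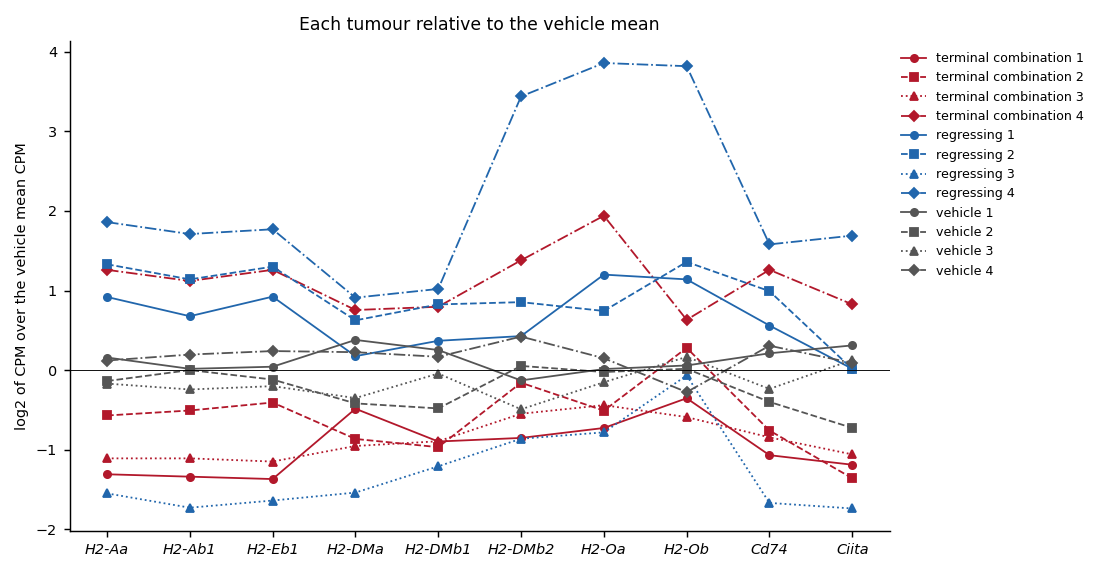
Level of each class II gene in each tumour as the log2 of its CPM over the mean CPM of the 4 vehicle tumours; each line is a tumour, coloured by group. Regressing replicate 4 lies at 3.86 for H2-Oa and 3.82 for H2-Ob, and regressing replicate 3 at -1.73 for H2-Ab1, -1.67 for Cd74 and -1.74 for Ciita, while the 4 vehicle tumours stay between -0.73 and 0.42.

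Class II levels were more uneven among regressing than among vehicle tumours, and in the terminal combination group the wider spread came with a single tumour. The standard deviation (SD) of log2 CPM over 4 tumours had a median over the 10 members of 1.05 in terminal combination, 1.51 in regressing and 0.26 in vehicle tumours. Over all tested genes the medians were 0.434, 0.35 and 0.382 in the same order of groups. All 10 members had a larger SD in both treated groups than in vehicle tumours, as did 32.9% of all tested genes. In 9 of 10 it was over 2 times as large in both, as it was in 7.56% of all tested genes; H2-DMa, with 0.786 in terminal combination, 1.09 in regressing and 0.402 in vehicle tumours, was the exception. Without terminal combination replicate 4 the median SD of that group was 0.291, and 5 of 10 members, H2-Aa, H2-Ab1, H2-Eb1, H2-Oa and H2-Ob, had a larger SD than in vehicle tumours, as did 55.7% of all tested genes. Among those 3 tumours Cd74, Ciita and H2-DMb1 were tighter, with SDs of 0.163, 0.143 and 0.0417, against 0.342, 0.455 and 0.327 in vehicle tumours. Without regressing replicate 4 the median SD of the regressing group was 1.1 and all 10 members had a larger SD than in vehicle tumours, as did 37.3% of all tested genes; without regressing replicate 3 it was 0.515, and all but H2-DMa did, as did 44.2% of all tested genes. The spread of the groups was not tested, and the members vary together, so they are not 10 separate observations. Terminal combination replicates 1, 2 and 3 lay below all vehicle tumours for 10, 8 and 10 members and regressing replicate 3 for 9, as did 21.1%, 26.2%, 15.7% and 17.9% of all tested genes in the same tumours. Terminal combination replicate 4 and regressing replicate 4 lay above all vehicle tumours for 10 members each, regressing replicate 1 for 8 and regressing replicate 2 for 9, as did 20.7%, 26.2%, 24.5% and 17.4% of all tested genes in the same tumours. All 10 members were highest in regressing replicate 4, as were 11.7% of all tested genes, and 9 were lowest in regressing replicate 3, as were 3.99% of all tested genes; H2-Ob was lowest in terminal combination replicate 3.

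**Figure D3:**
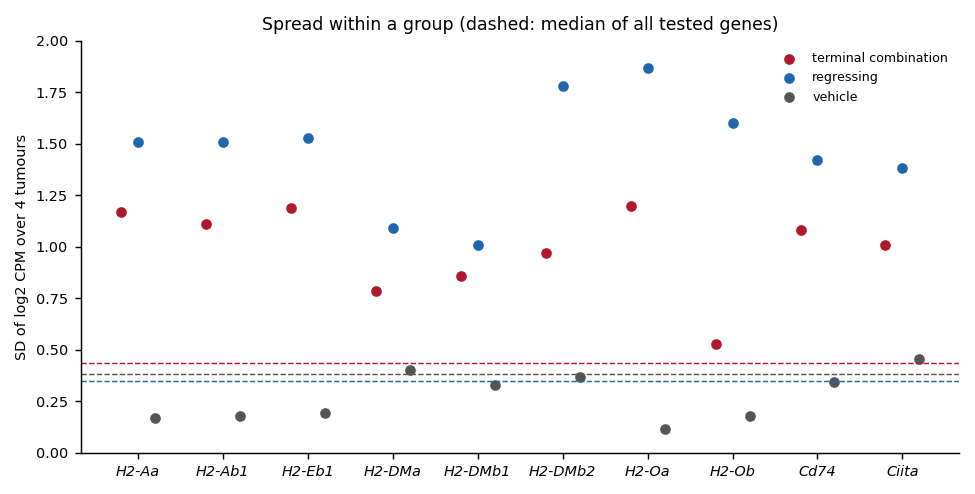
SD of log2 CPM over the 4 tumours of each group for the 10 class II genes; dashed lines are the medians of all 15650 tested genes. The points of the terminal combination and regressing groups lie above those of the vehicle group for all 10 genes, with H2-Ob in terminal combination tumours lowest among the treated points at 0.53.

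Regressing tumours were set against vehicle tumours with edgeR's quasi-likelihood test, fitted to all 12 libraries and adjusted over all tested genes by the Benjamini-Hochberg method. The regressing tumours were taken during regression and the vehicle tumours at the terminal point, so drug treatment and time of harvest cannot be told apart in this comparison. All 10 members had a higher fitted level in regressing than in vehicle tumours, where 48.5% of all tested genes did, with log2 differences from 0.29 for H2-DMa to 2.30 for H2-Ob and a median of 0.95. Over all tested genes the median was -0.0169. None of the differences passed: 0 of 10 members had an adjusted p under 0.05, and percent called was 0 over all tested genes. Unadjusted p-values under 0.05 were reached by 3 members, H2-DMb2, H2-Oa and H2-Ob, and by 12.7% of all tested genes. DESeq2 called 1 member, H2-Ob, and 3.05% of all tested genes. The groups overlapped for each of the 10 members, while they did not for 7.64% of all tested genes. Without the 3 tumours richest in muscle RNA, an alternative chosen after seeing the data, the differences were 0.31 for H2-Ab1, 0.80 for H2-Ob, -0.09 for H2-DMa and -0.62 for Ciita. No member had an unadjusted p under 0.05 by edgeR, where 3.56% of all tested genes in that fit did. Those 3 include regressing replicate 1 and regressing replicate 4, the highest tumour for all 10 members. The fit kept only regressing replicates 2 and 3, and the part of muscle in the change was not tested.

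The DO chains and H2-DMb2 had the largest differences between regressing and vehicle tumours. H2-Ob averaged 8.75 ± 10.8 CPM across regressing tumours and 1.77 ± 0.222 CPM across vehicle tumours (SD, n = 4 each), which is a log2 difference of 2.30 ± 0.71 (SE) with an adjusted p of 0.265 by edgeR and 0.0352 by DESeq2. H2-Oa averaged 7.29 ± 10.01 CPM across regressing tumours and 1.53 ± 0.132 CPM across vehicle tumours, or a log2 difference of 2.25 ± 0.93 with an adjusted p of 0.351 by edgeR. H2-DMb2 averaged 13.8 ± 18.4 CPM across regressing tumours and 3.79 ± 0.997 CPM across vehicle tumours, or a log2 difference of 1.86 ± 0.83 with an adjusted p of 0.378 by edgeR. Without regressing replicate 4 these differences were 0.93 for H2-Ob, 0.60 for H2-Oa and 0.30 for H2-DMb2, and no member reached an unadjusted p under 0.05, where 8.68% of all tested genes in that fit did. That tumour is the one with the most B and T cell RNA, and the part of such cells in the difference was not tested. Titles of 4 libraries end in FFT, a possible batch mark that no source used here explains; among the other 8 the differences were 2.58, 2.46 and 2.09 for the same genes. The FFT libraries hold only 1 tumour of each treated group, too few for values of their own.

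The presenting chains were about 2 times as abundant on average in regressing tumours, within a wide error. H2-Ab1 averaged 630.0 ± 424 CPM across regressing tumours and 342 ± 41.9 CPM across vehicle tumours, or a log2 difference of 0.88 ± 0.65 (edgeR adjusted p = 0.585). Its approximate 95% interval ran from -0.39 to 2.15, so neither no change nor a 4-fold increase lies outside it. H2-Aa and H2-Eb1 had log2 differences of 1.07 ± 0.67 and 1.02 ± 0.67, Cd74 of 0.76 ± 0.64 and Ciita of 0.46 ± 0.66. H2-DMb1 and H2-DMa, at 0.47 ± 0.49 and 0.29 ± 0.49, were the smallest of the chains. Without regressing replicate 4, Ciita was at -0.37, H2-Ab1 at 0.45 and H2-DMa at 0.01. Without regressing replicate 3, the tumour with the lowest levels, the differences were 1.23 for H2-Ab1 and 2.64 for H2-Ob, and 6 members had an unadjusted p under 0.05, as did 13.7% of all tested genes in that fit, with a smallest adjusted p of 0.203 by edgeR.

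Terminal combination tumours, set against vehicle tumours taken at the same terminal point, had class II means close to theirs. Log2 differences ran from -0.38 for Ciita to 0.56 for H2-Oa, with 4 of 10 above 0, where 50.4% of all tested genes were. By edgeR 0 of 10 members had an adjusted p under 0.05, 0 had an unadjusted p under 0.05, and percent called was 0 over all tested genes; 5.94% of these had an unadjusted p under 0.05. DESeq2 called 0 members and 0.0895% of all tested genes. The groups overlapped for all 10 members, while they did not for 2.5% of all tested genes. H2-Ab1 averaged 320 ± 286.5 CPM across terminal combination tumours and 342 ± 41.9 CPM across vehicle tumours, or a log2 difference of -0.10 ± 0.64 with an approximate 95% interval from -1.36 to 1.16. The mean hides a split within the group. Without terminal combination replicate 4 the log2 differences were -0.96 for H2-Aa, -0.94 for H2-Ab1, -0.91 for H2-Eb1 and -0.89 for Cd74. All 10 members then had a lower fitted level than in vehicle tumours, with no adjusted p under 0.947 by edgeR. The share of all tested genes that did so is not given here. Single tumours did not always follow: H2-Ob in terminal combination replicate 2, at 2.14 CPM, lay above every vehicle tumour.

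Between terminal combination and regressing tumours, which had the same drugs, all 10 members had a lower fitted level in terminal combination tumours, where 50.8% of all tested genes were higher. Log2 differences ran from -2.23 for H2-Ob to -0.50 for H2-DMa, with a median of -1.0. By edgeR 0 of 10 members had an adjusted p under 0.05, and percent called was 0 over all tested genes. An unadjusted p under 0.05 was reached by 1 member, H2-Ob, and by 7.02% of all tested genes, while DESeq2 called 0 members and 0.326% of all tested genes. The groups overlapped for all 10 members, while they did not for 3.9% of all tested genes. H2-Ob averaged 1.86 ± 0.719 CPM in terminal combination and 8.75 ± 10.8 CPM in regressing tumours (SD, n = 4 each), a log2 difference of -2.23 ± 0.71 with an adjusted p of 0.692 by edgeR. Single tumours decided these values. Without terminal combination replicate 4, all 10 members had an unadjusted p under 0.05, as did 8.45% of all tested genes in that fit, the smallest adjusted p being 0.551 by edgeR. Without regressing replicate 4 none did, where 4.58% of all tested genes did, and the log2 differences were -0.86 for H2-Ob, -0.55 for H2-Ab1, -0.33 for Cd74, -0.06 for H2-DMb2, -0.04 for H2-Oa and -0.01 for Ciita. Without the 3 tumours richest in muscle RNA, which include regressing replicate 4, none did either, where 2.46% of all tested genes did. In that fit H2-DMa, H2-DMb2, H2-Oa and Ciita were higher in terminal combination tumours, by 0.05, 0.12, 0.62 and 0.46. Without regressing replicate 3, 7 members had an unadjusted p under 0.05, as did 8.84% of all tested genes in that fit, with a smallest adjusted p of 0.419 by edgeR. The comparison shares the regressing tumours with the one against vehicle tumours, so the 2 are not separate evidence. When all 3 groups were tested for any difference, 0 of 10 members had an adjusted p under 0.05 by edgeR, 1 had an unadjusted p under 0.05 (H2-Ob), percent called was 0 and 9.46% of all tested genes had an unadjusted p under 0.05.

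**Figure D4:**
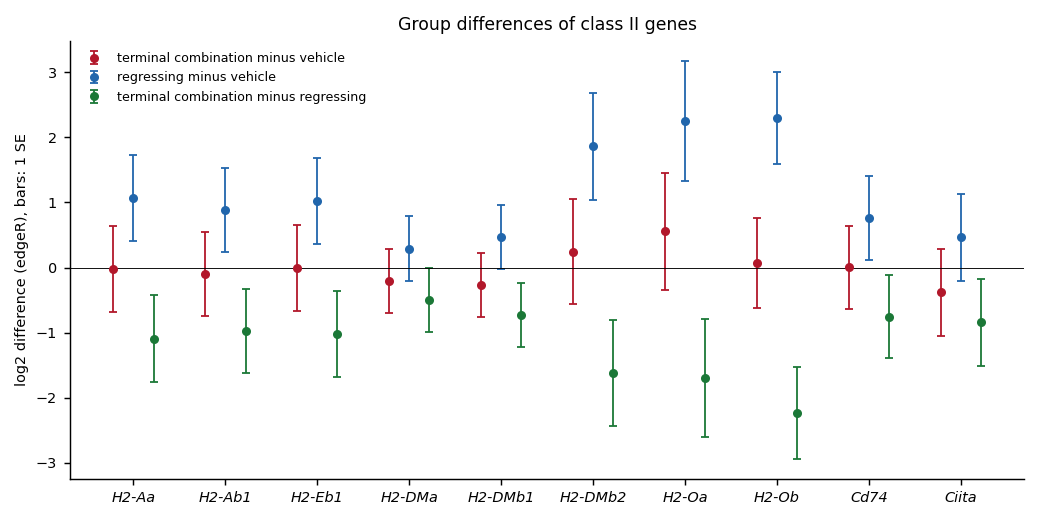
Log2 differences of the 10 class II genes from edgeR, with bars of 1 SE, for terminal combination minus vehicle, regressing minus vehicle and terminal combination minus regressing. All 10 points of regressing minus vehicle lie above 0, up to 2.30 for H2-Ob, and those of terminal combination minus vehicle lie between -0.38 and 0.56.

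Ratios between members within a tumour do not depend on how deeply it was sequenced or scaled. The count of H2-Ob relative to that of H2-DMa, 1 chain of the inhibitor relative to 1 chain of its target, was 4.56%, 9.21%, 5.36% and 3.82% in terminal combination tumours. It was 8.11%, 6.92%, 11.5% and 31.2% in regressing tumours, and 3.33%, 5.63%, 5.96% and 2.94% in vehicle tumours. For H2-Ob all regressing tumours lay above all vehicle tumours. For H2-Oa, the other DO chain, they did not. Its ratio to H2-DMa was 3.04% to 8.21% in terminal combination, 3.9% to 27.9% in regressing and 2.79% to 4.73% in vehicle tumours, and was not tested. For H2-Ob the difference in mean log2 ratio between regressing and vehicle tumours was 1.47, with a two-sided exact permutation p of 0.0286, the smallest that 4 against 4 tumours allow, and 0.343 after adjustment over 12 ratio tests. It was 1.01 without regressing replicate 4 and 1.68 among the libraries without the FFT ending. Between terminal combination and regressing tumours it was -1.13 (exact permutation p = 0.0857, adjusted p = 0.514). The ratios of Cd74 to H2-Ab1, of Ciita to H2-Ab1 and of H2-DMb2 to H2-DMb1 had exact permutation p-values from 0.171 to 0.914 in the 3 comparisons.

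Genes of other cells were set against class II across the 12 tumours to see which vary with it. H2-Ab1 and Cd74 had a Pearson r of 0.98 (rho 0.99), with a permutation p of 1e-05, the smallest that the resamples can give, and an adjusted p of 9e-05 over 9 relations for either coefficient; r was 0.96 without regressing replicates 3 and 4. H2-Ab1 and Ciita had an r of 0.89 (permutation p adjusted 0.00072; rho 0.78, permutation p adjusted 0.00916), 0.79 without regressing replicates 3 and 4, the tumours farthest from the median of Ciita. Among the 8 libraries without the FFT ending these values were 0.99 for Cd74 and 0.91 for Ciita, and with group means subtracted they were 0.98 and 0.89.

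Flt3, a receptor of dendritic cells and their precursors, varied with H2-Ab1, and Csf1r, the receptor that macrophages depend on, did so far less. For Flt3 r was 0.83 (permutation p adjusted 0.00195; rho 0.81, permutation p adjusted 0.00795), 0.72 without terminal combination replicate 1 and regressing replicate 4 (permutation p = 0.0183), and 0.81 among the libraries without the FFT ending. For Csf1r r was 0.12 (permutation p adjusted 0.718; rho 0.18, permutation p adjusted 0.588), 0.16 without vehicle replicates 1 and 2, and 0.45 among the libraries without the FFT ending. The 2 coefficients were not tested against each other. Csf1r had 388 ± 160 CPM in terminal combination, 426 ± 108.5 CPM in regressing and 443 ± 255.5 CPM in the vehicle group (SD, n = 4 each), and was highest in vehicle replicate 1, a tumour in the middle of the class II range. The 11 dendritic cell markers summed to 53.5 to 133 CPM in terminal combination, 54.7 to 290 in regressing and 70.04 to 127 in vehicle tumours, and the 12 macrophage markers to 3161 to 5281, 2832 to 6413 and 2047 to 6177 CPM in the same order of groups. In regressing replicate 4, 9 of the 11 dendritic cell markers and 0 of the 12 macrophage markers were at their highest. Of all tested genes, 11.7% were highest there. So were all 10 T cell markers, 9 of 10 genes of CD4 T cells and costimulation, 8 of 12 of interferon-gamma signalling and 8 of 10 of adipocytes. Other lists had fewer, such as 1 of 10 muscle, 2 of 8 endothelial and 1 of 5 plasma cell genes. High levels in this tumour were thus not particular to dendritic cell markers. No dendritic cell or macrophage marker was at 0 in all tumours of a group, and the part of these cells in the class II levels was not tested.

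**Figure D5:**
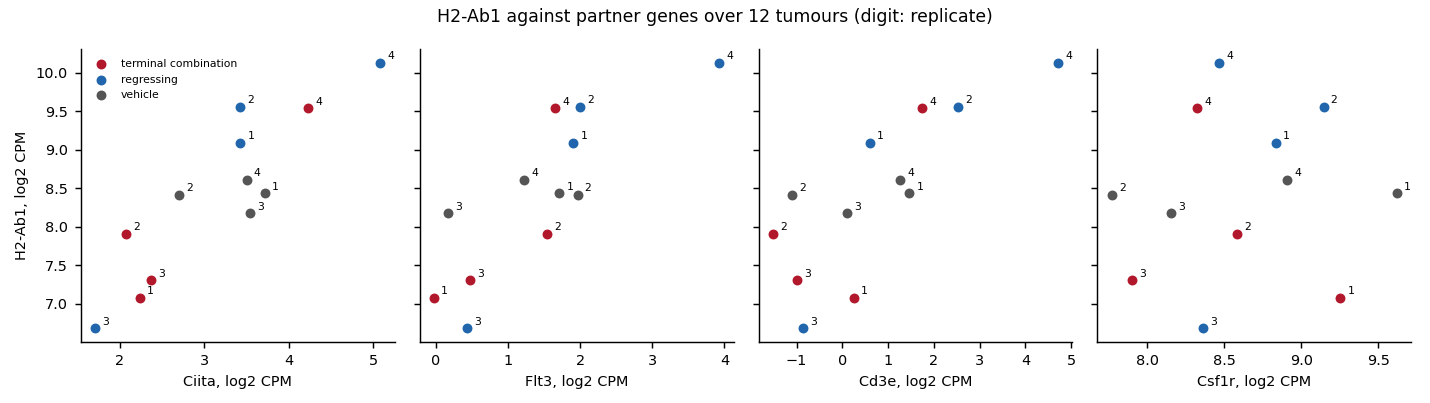
H2-Ab1 against Ciita, Flt3, Cd3e and Csf1r, all as log2 CPM, over the 12 tumours coloured by group and numbered by replicate. H2-Ab1 rises along Ciita (r = 0.89), Flt3 (r = 0.83) and Cd3e (r = 0.80) and shows little order along Csf1r (r = 0.12).

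Cd3e, a chain of the T cell receptor complex on the cells that class II addresses, had an r of 0.80 with H2-Ab1 (permutation p adjusted 0.00349; rho 0.80, permutation p adjusted 0.00795). Without regressing replicates 2 and 4 it was 0.63 (permutation p = 0.0558), so the relation rests partly on those tumours; among the libraries without the FFT ending it was 0.90. Cd79a, a chain of the B cell receptor, had an r of 0.60 with H2-Ab1 (permutation p adjusted 0.0324; rho 0.57, permutation p adjusted 0.0886), 0.38 without terminal combination replicate 2 and regressing replicate 4, and 0.57 among the libraries without the FFT ending. With the DO chains, which B cells are known to make, Cd79a had an r of 0.81 for H2-Ob and 0.77 for H2-Oa (permutation p adjusted 0.021 each), but rho was 0.34 and 0.55 (permutation p adjusted 0.32 and 0.0902). Their r was 0.38 and 0.18 without the same 2 tumours, and 0.80 and 0.75 among the libraries without the FFT ending. Both relations thus rest on regressing replicate 4, where Cd79a had 58.0 CPM, against at most 1.97 CPM in any other tumour. The 9 B cell markers summed to 8.04 to 20.5 CPM in terminal combination, 10.3 to 265 in regressing and 13.8 to 24.7 in vehicle tumours, and the 10 T cell markers to 20.7 to 74.8, 20.5 to 505 and 42.4 to 48.0 CPM in the same order of groups. In regressing replicate 4 all 3 B cell markers tested and all 10 T cell markers were at their highest, as were 11.7% of all tested genes. No marker of either list was at 0 in all tumours of a group, and the part of these cells in the class II levels was not tested. By edgeR 0 markers of either list passed in any comparison. The counts that follow are for regressing against vehicle, terminal combination against vehicle and terminal combination against regressing tumours, in that order. An unadjusted p under 0.05 by edgeR was reached by 6, 0 and 9 of the 10 T cell markers and by 2, 0 and 2 of the 3 B cell markers tested. Of all tested genes, 12.7%, 5.94% and 7.02% reached it. DESeq2 called 0, 0 and 1 T cell marker and 0 B cell markers, beside 3.05%, 0.0895% and 0.326% of all tested genes, and gave Cd79a no adjusted p. For the T cell marker Cd3g the log2 difference between regressing and vehicle tumours was 2.59. It was 1.27 without regressing replicate 4 (edgeR unadjusted p = 0.154). Plasma cells, which are known to shut class II off as they mature, did not rank the tumours the same way: Jchain, the chain that joins secreted antibody units, had 8.52 to 109 CPM in regressing tumours with the highest value in replicate 2, against 0.477 to 3.88 CPM in terminal combination and 0.305 to 9.69 CPM in vehicle tumours. The 6 plasma cell markers summed to 107 to 277 CPM in terminal combination, 273 to 1164 in regressing and 186 to 347 in vehicle tumours, and their part was not tested either. Most of the sum in vehicle tumours was Sdc1, a proteoglycan also made outside plasma cells, which averaged 179 ± 69.5, 116 ± 57.4 and 262.5 ± 74.0 CPM in the same order of groups (SD, n = 4 each). Of the 5 tested, edgeR passed 0 in any comparison, and DESeq2 called 3, 0 and 3, beside 3.05%, 0.0895% and 0.326% of all tested genes. An unadjusted p under 0.05 by edgeR was reached by 4, 0 and 3, beside 12.7%, 5.94% and 7.02% of all tested genes. Between regressing and vehicle tumours Jchain, Igkc and Mzb1 had positive log2 differences and Sdc1 one of -1.17.

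Interferon-gamma is the classical inducer of CIITA, and its own RNA was barely detected. Ifng had 0, 0, 1 and 4 counts in terminal combination, 2, 13, 1 and 5 in regressing, and 0, 0, 3 and 0 in vehicle tumours. Its r of 0.69 with H2-Ab1 (permutation p adjusted 0.021; rho 0.60, permutation p adjusted 0.0814) was 0.46 without regressing replicates 2 and 4 and 0.73 among the libraries without the FFT ending, at counts too low for an order. Of 12 tested genes of interferon-gamma signalling 0 passed in any comparison by edgeR. In each comparison 1 of them had an unadjusted p under 0.05. The median log2 differences were 0.35 for regressing against vehicle, -0.38 for terminal combination against vehicle and -0.46 for terminal combination against regressing tumours. In the same order of comparisons, 12.7%, 5.94% and 7.02% of all tested genes had an unadjusted p under 0.05. DESeq2 called 0 of the 12 genes, with no adjusted p for Jak1. Cxcl9, a chemokine that interferon-gamma induces, ran from 1.61 to 30.1 CPM in terminal combination, 4.26 to 276 CPM in regressing and 3.93 to 83.2 CPM in the vehicle group. It too was highest in regressing replicate 4. Jak1, a kinase of the interferon receptors, had 6012 CPM in vehicle replicate 3 and 196 to 277 CPM in the other 11 tumours, while class II levels in vehicle replicate 3 lay with those of its group.

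Of the 10 other transcription factors of class II promoters and antigen-presenting cells, 0 passed in any comparison by edgeR or DESeq2. An unadjusted p under 0.05 by edgeR was reached by 1, 0 and 1 of them and by 12.7%, 5.94% and 7.02% of all tested genes. The comparisons were, in order, regressing against vehicle, terminal combination against vehicle and terminal combination against regressing tumours. In the first of these the median log2 difference was -0.16. The list, which holds subunits of the complexes that sit on the X and Y boxes, summed to 264 to 319 CPM in terminal combination, 261 to 409 in regressing and 283 to 378 in vehicle tumours. Irf8, a factor of dendritic cells and other myeloid cells, had 34.6 ± 11.01 CPM in terminal combination, 66.4 ± 42.0 CPM in regressing and 39.1 ± 12.7 CPM in the vehicle group (SD, n = 4 each). Irf4, a factor of dendritic cells, B cells and plasma cells, had 1.43 ± 0.764, 4.39 ± 4.46 and 1.18 ± 0.806 CPM in the same order of groups, with a log2 difference of 1.88 ± 0.78 between regressing and vehicle tumours (edgeR adjusted p = 0.352), and of 0.89 without regressing replicate 4.

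Antigen processing and the T cell side were counted in the same way. The counts of unadjusted p-values stand beside 12.7%, 5.94% and 7.02% of all tested genes, in the same order of comparisons. Of 11 genes of class II processing 0 passed by edgeR or DESeq2 in any comparison, with 1, 1 and 0 under an unadjusted p of 0.05 in the same order of comparisons; Cst3, an inhibitor of cathepsins, had a log2 difference of 0.88 ± 0.40 between regressing and vehicle tumours (edgeR adjusted p = 0.382). Of 10 tested genes of CD4 T cells and costimulation 0 passed by edgeR, with 4, 1 and 7 under an unadjusted p of 0.05. DESeq2 called 1, Cd3g, in terminal combination against regressing tumours, where it called 0.326% of all tested genes. Cd3g, another chain of the T cell receptor complex, had 1.45 ± 1.37 CPM in terminal combination and 15.2 ± 19.0 CPM in regressing tumours, a log2 difference of -3.38 ± 1.01 (edgeR adjusted p = 0.692), and of -2.06 without regressing replicate 4. Of the 11 dendritic cell markers 0 passed by edgeR or DESeq2, which gave Ccr7 no adjusted p, with 3, 0 and 3 under an unadjusted p of 0.05. Between regressing and vehicle tumours the list had a median log2 difference of 0.555, with 10 markers higher and 1 lower. Zbtb46, a factor of conventional dendritic cells, had 9.87 ± 3.65 CPM across regressing tumours and 4.88 ± 0.724 CPM across vehicle tumours. Its log2 difference was 1.01 ± 0.34 (edgeR adjusted p = 0.278), and 0.80 without regressing replicate 4 (edgeR adjusted p = 0.561). Its lowest regressing tumour, at 6.70 CPM, was above its highest vehicle tumour, at 5.84 CPM. These groups did not overlap for 7.64% of all tested genes. Of the 12 macrophage markers 0 passed by edgeR or DESeq2, with 0, 0 and 1 under an unadjusted p of 0.05.

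The genes most like H2-Ab1 over the 12 tumours, by Pearson r of log2 CPM among all tested genes that are not members, were Napsa (0.93), Plbd1 (0.92), Tmsb4x (0.90), 5430437J10Rik (0.90) and Sema4a (0.90). Levels of 5430437J10Rik were only 0.0489 to 1.85 CPM, reaching below the 3-count limit, so its r is imprecise. Napsa, an aspartic protease, ran from 3.74 CPM in terminal combination replicate 1 to 53.7 CPM in regressing replicate 4. Among members the r with H2-Ab1 was 0.99 for H2-Aa, above 0.99 for H2-Eb1, 0.95 for H2-DMb1, 0.92 for H2-DMa, 0.87 for H2-DMb2, 0.86 for H2-Oa and 0.76 for H2-Ob. By Spearman's rho H2-Ob and Ciita were level, at 0.78 each. H2-Ob itself had an r of 0.91 with both H2-DMb2 and H2-Oa. The genes outside the members with the highest r with H2-Ob were Lat, an adaptor of the T cell receptor (r 0.94, rho 0.62), Cd28, a costimulatory receptor of T cells (r 0.93, rho 0.83), and the complement component C3 (r 0.93, rho 0.60). All 3 were highest in regressing replicate 4, at 33.9, 13.0 and 855 CPM, and without that tumour their r with H2-Ob was 0.72, 0.88 and 0.73, beside 0.81 for H2-Aa. For the 5 genes most like H2-Ab1, r without that tumour was 0.87 to 0.92.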

How the data were processed

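Per the labels, tumour RNA came from Qiagen RNeasy mini kits and the libraries from TruSeq Stranded mRNA. The authors deposited raw counts, 1 whole number per Ensembl gene and library. The submitters' processing notes name HISAT2 2.2.1, Salmon, DESeq2 1.24.0 and the builds mm10 and GRCm38.p6; which tool counted, the strand setting and the annotation release are not given in the sources used here. Symbols and positions came from GENCODE M21 (54495 of 54532 identifiers). Groups follow the treatment and harvest labels, and replicates are numbered in accession order, which pairs nothing. No 2 libraries agreed within sampling noise (chi-square over degrees of freedom at least 56.8).

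Counts were tested with edgeR 4.0.16 in R 4.3.3 (limma 3.58.1; filterByExpr with minimum count 10 and total 15; TMM; quasi-likelihood F test; 12 libraries; Benjamini-Hochberg adjustment over 15650 genes; threshold 0.05). Simulated counts were used to test the edgeR fit of regressing against vehicle tumours. DESeq2 1.42.0, RLE scaling, 2 other filters, the FFT ending as covariate or left out, 2-group fits, leaving out each tumour, and leaving out the 3 tumours richest in muscle RNA were alternatives. Leaving out muscle-rich tumours, and the spread and likeness without single tumours, were added after seeing the data. DESeq2 gave no adjusted p for a few genes, which then could not be called. CPM use TMM-adjusted library sizes; correlations use log2 CPM with a prior count of 2 and 100000 resamples; ratios add 0.5 to each count. Python 3.11.15, pandas 2.3.3, numpy 2.4.6, scipy 1.17.1 and matplotlib 3.10.9 were used. The Wilson intervals and the 3-count limit cover counting error only. The approximate 95% intervals of log2 differences were built from the edgeR SE, which also includes the spread between tumours. They take the estimates as normally distributed, which makes them too narrow for so few tumours.

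The members and the 14 lists were chosen with earlier results of these data known. Named are the members, up to 4 genes of each list with the smallest p, partners in correlations and ratios, and the genes most like H2-Ab1 and H2-Ob; H2-Eb2 was chosen after its values were seen.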

Additional observations from a re-analysis of the deposited data

Results flagged for a closer look

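In 4 tumours of a group, a tumour is listed here where its gap to the nearest other tumour exceeds the share of the group's range set by Dixon's 95% critical value. Chance gives this in about 1 of 20 groups of normally distributed values, and CPM were taken here without a log. Of the 30 groups of members looked at, 10 were listed, where 1.5 would be expected by chance if members varied separately, which they do not. Over all 111 groups of genes named it was 24, where that rate gives 5.55. Many named genes were picked by a small p or by likeness to H2-Ab1 or H2-Ob, and H2-Eb2 after its values were seen. For them 5.55 is therefore no expectation by chance. No explanation was tested for any of them.

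Terminal combination replicate 4 stood above the other 3 tumours of its group for 7 members: H2-Aa at 860.2 CPM against 144 to 241, H2-DMa at 71.6 against 21.9 to 30.3, H2-DMb1 at 56.5 against 16.6 to 17.5, H2-DMb2 at 9.87 against 2.10 to 3.40, H2-Oa at 5.88 against 0.921 to 1.12, Cd74 at 1782 against 354 to 440.4, and Ciita at 18.7 against 4.11 to 5.04. In the same tumour Plbd1 was at 72.6 CPM against 19.96 to 27.3, Sema4a at 34.1 against 8.65 to 12.6, 5430437J10Rik at 0.856 (15 counts) against 0.0489 to 0.179, Cd28 at 2.40 against 0.4095 to 0.536 and Jchain at 3.88 against 0.477 to 1.03.

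Regressing replicate 4 stood above the rest of its group for 3 members: H2-DMb2 at 41.2 CPM against 2.09 to 6.85, H2-Oa at 22.2 against 0.887 to 3.50 and H2-Ob at 24.9 against 1.69 to 4.53. In that tumour Cd79a was at 58.0 CPM against 0.399 to 1.97, Ccr7 at 95.7 against 1.64 to 6.91, H2-Eb2 at 8.25 against 0.133 to 1.05, Lat at 33.9 against 1.60 to 5.98 and C3 at 855 against 81.8 to 182.

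Among vehicle tumours, Jak1 was at 6012 CPM in replicate 3 against 196 to 277 in the others, Ifng at 0.153 CPM (3 counts) in replicate 3 against 0, Napsa at 5.64 CPM in replicate 3 against 11.1 to 11.8, and Cd28 at 1.41 CPM in replicate 1 against 0.661 to 0.786.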

How the results depend on the processing

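edgeR called 0 members in every comparison under every edgeR alternative run, while DESeq2 called 1 for regressing against vehicle tumours (H2-Ob, log2 difference 2.33, adjusted p = 0.0352); DESeq2 called 477, 14 and 51 genes over all tested for regressing against vehicle, terminal combination against vehicle, and terminal combination against regressing tumours, where edgeR called 0, and leaving out 1 tumour at a time gave edgeR 0 to 1 genes for the last, 1 without terminal combination replicate 4. Of the log2 differences of members under an alternative, 557 kept their direction and their side of the threshold, 42 turned direction, none of them called, and 1 passed it (H2-Ob with DESeq2). No paired analysis was possible because the labels give no replicate numbers. DESeq2 and the FFT covariate gave no value for any difference among 3 groups.

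The 3 tumours richest in muscle RNA include regressing replicate 4, the highest for class II. Without these 3, log2 differences were -0.0934 for H2-DMa and -0.621 for Ciita (regressing against vehicle), 0.115 for H2-Aa, 0.00952 for H2-Ab1, 0.0983 for H2-Eb1 and -0.0153 for H2-Ob (terminal combination against vehicle), and 0.0458 for H2-DMa, 0.121 for H2-DMb2, 0.619 for H2-Oa and 0.456 for Ciita (terminal combination against regressing). For terminal combination against vehicle tumours H2-Eb1 was at 0.00924 with RLE scaling, 0.00929 with DESeq2 and 0.00074 in the fit of 2 groups. With FFT as covariate H2-DMb2 was at -0.121, H2-Ob at -0.106 and Cd74 at -0.18; without FFT libraries H2-Aa was at 0.252, H2-Ab1 at 0.161, H2-Eb1 at 0.222 and the ratio of Cd74 to H2-Ab1 at -0.00949. The cause was not tested.

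Leaving out 1 tumour at a time, the difference for Ciita between regressing and vehicle tumours ran from -0.374 to 0.797. Between terminal combination and vehicle tumours the range was -0.964 to 0.234 for H2-Aa, -0.941 to 0.153 for H2-Ab1, -0.914 to 0.257 for H2-Eb1, -0.492 to 0.476 for H2-DMb2, -0.551 to 0.811 for H2-Oa, -0.176 to 0.237 for H2-Ob and -0.887 to 0.235 for Cd74. The log2 ratio of Cd74 to H2-Ab1 differed by -0.186 to 0.0127 between regressing and vehicle and by -0.00216 to 0.242 between terminal combination and vehicle tumours, and that of Ciita to H2-Ab1 by -0.421 to 0.00777 between terminal combination and vehicle and by -0.00669 to 0.419 between terminal combination and regressing tumours; H2-DMb2 to H2-DMb1 had -0.491 to 0.304 in the last.

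Of the correlations, r in the libraries without FFT was 0.574 for H2-Ab1 with Cd79a, 0.726 for H2-Ab1 with Ifng, 0.796 for H2-Ob with Cd79a and 0.75 for H2-Oa with Cd79a, none past the threshold, and H2-Ab1 with Cd79a was 0.519 with group means subtracted. Leaving out 1 tumour, r ran from -0.0179 to 0.303 for H2-Ab1 with Csf1r, 0.372 to 0.718 with Cd79a and 0.608 to 0.74 with Ifng, and with Cd79a from 0.275 to 0.864 for H2-Ob and 0.287 to 0.908 for H2-Oa. H2-Oa and H2-Ob had only 18 to 48 counts in 9 of the 12 tumours each, which limits their precision there.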

Other observations

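Of the other genes of the class II region, H2-Eb2, a second E beta gene that did not pass the filter on low counts, was also highest in regressing replicate 4: it had 0.0512 to 0.536 CPM in terminal combination tumours, 0.133 to 8.25 CPM in regressing tumours and 0 to 0.984 CPM in vehicle tumours, with 107 counts in regressing replicate 4. It was chosen after its values were seen. Ccr7, a receptor that guides mature dendritic cells and lymphocytes to lymph nodes, had 1.76 to 3.63 CPM in terminal combination, 1.64 to 95.7 CPM in regressing and 2.14 to 9.32 CPM in vehicle tumours, the highest in regressing replicate 4. Siglech, a marker of plasmacytoid dendritic cells, was spread over more tumours, with 1.18, 0.596, 0.733 and 0.456 CPM in terminal combination, 3.12, 3.14, 0.577 and 6.25 CPM in regressing, and 1.80, 0.786, 0.4575 and 0.817 CPM in vehicle tumours; its log2 difference between terminal combination and regressing tumours was -2.12 ± 0.66 (edgeR adjusted p = 0.692), and -1.60 without regressing replicate 4. Mertk, a receptor with which macrophages take up dying cells, had a higher mean in terminal combination tumours, with 29.1 ± 16.7 CPM in terminal combination and 14.2 ± 3.12 CPM in regressing tumours (SD, n = 4 each), a log2 difference of 1.03 ± 0.38 (edgeR adjusted p = 0.692). Of the 12 macrophage markers it was 1 of 3 higher in terminal combination than in regressing tumours, and the median log2 difference of the list was -0.39.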
